A study of Caenorhabditis elegans with 16 samples.

Results

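The comparison of L4 with L2 larvae within seam cells is described here from 8 of the 16 samples of the series, all of them from strains in which the *srf-3i1* promoter drove the fusion. RNA polymerase occupancy was read by targeted DamID (TaDa), in which the bacterial DNA methyltransferase Dam is tethered to the RNA polymerase subunit RPB-6. The fusion leaves adenine methylation at GATC sites near the polymerase, and the subunit is shared by all RNA polymerase complexes. At L4, 48 h after embryos were seeded, 2 replicates of *dam:rpb-6* (strain MBA698) and 2 of the *dam:NLS-GFP* control (strain MBA692) were profiled, and the same strains gave 2 replicates of each at L2, 24 h after seeding. The control carries Dam on a nuclear GFP under the same promoter and reports accessible chromatin. All transgenes were single-copy insertions, each fusion was represented by 1 strain, and the 24 h and 48 h animals of a replicate came from one synchronised population. The 8 remaining samples, from hypodermis, carried the same fusions under the *dpy-7syn1* promoter (strains MBA688 and MBA693) at both stages, and are used for a shared estimate of the spread and for comparison. Whole larvae were collected, so the cell type rests on the promoter alone, and a lower number of cells in which it was active cannot be told apart from lower occupancy in each cell. Adenine methylation of DNA lasts until replication dilutes it, so that an L4 profile can also hold marks made at earlier stages.

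Seam cells are lateral epidermal cells that divide in a stem cell-like manner at each larval stage. After their last division in early L4 they leave the cell cycle, fuse with one another and secrete the adult cuticle with its lateral alae. This larval-to-adult switch is timed by the heterochronic pathway, in which microRNAs of the *let-7* family and *lin-4* repress juvenile regulators until the transcription factor LIN-29 can act. Each stage also ends with a moult, in which a temporary precuticle is laid down and the collagens of the next cuticle are transcribed in waves. Each stage was collected at a single time after seeding. For such genes a difference between the stages therefore cannot be told apart from one between points of the moulting cycle.

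Each of 269057 GATC fragments of WBcel235 had a score, the log2 ratio of *dam:rpb-6* to *dam:NLS-GFP* signal. Occupancy of a gene was the mean score of its overlapping fragments weighted by overlapped length, which gave a value for 19983 of 19985 annotated protein-coding genes (median of 7 fragments a gene). The L4 values were replicate 1 against control 2 and replicate 2 against control 1, and the L2 values replicate 1 against control 1 and replicate 2 against control 2, so that no sample was used more than once. Hypodermis values paired samples of the same number. The deposited profile of L4 replicate 1 against control 1 was left out, because across fragments it followed the ratio of control 2 to control 1 with r = 0.996, whereas its correlation with the same replicate scored on control 2 was -0.348. Across genes, which are not independent, the replicates correlated with r = 0.716 at L4 and with r = 0.309 at L2, where replicate 1 often lay nearer to 0 than replicate 2 at highly occupied genes. Of the fragment scores, 26.2% and 44.6% were 0 at L4, against 26.7% and 25.3% at L2. The profiles hold ratios without read counts, and their depth is unknown.

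The labelled cell type was checked on marker lists. Of 9 seam markers, 8 and 7 had an occupancy above 0.5 in the L4 profiles, against 6 and 9 in the L2 profiles. Among 19 neuron, 15 intestine, 18 germline and 6 pharynx markers, no profile at either stage had more than 3 of a list above this level. By count, body wall muscle was the exception at L2: of 13 of its markers, 1 and 0 exceeded 0.5 in the L4 profiles, against 5 and 10 in the L2 profiles. The shortest of the other lists, pharynx with 6 markers, had 0 and 0 above 0.5 at L4, against 1 and 2 at L2. Of 5 hypodermis markers, 4 and 4 did so at L4, against 2 and 3 at L2. The endogenous *srf-3* gene, a nucleotide sugar transporter gene of the lateral epidermis, had 1.27 and 0.44 at L4, against 1.28 and 0.56 at L2.

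Cuticle collagens and the matrix and moulting genes that accompany them made up the most marked group with more polymerase at L4 than at L2, and body wall muscle markers the most marked nuclear group with less. The L4 minus L2 difference was tested with limma in a fit of 8 profiles over both cell types, with 4 residual degrees of freedom and a 2-sided Benjamini-Hochberg adjusted p over all 19983 genes. No gene passed an adjusted p of 0.05 in either direction (0% of genes higher and 0% lower), and the smallest adjusted p by limma was 0.177. At an unadjusted p under 0.05, 661 genes (3.31%) were higher and 1099 (5.5%) lower at L4. In an alternative, each *dam:rpb-6* replicate was averaged over both controls, except L4 replicate 1 of seam cells, which was scored on control 2 alone. There 233 genes were higher and 447 lower at a limma adjusted p under 0.05, but these values share control samples within a group. An exact permutation test of 2 against 2 replicates cannot give a 2-sided p below 0.333. The description therefore rests on size and on separation of the replicates: a gene is called gained where both L4 values lay above both L2 values and the means differed by at least 1 on the log2 scale, and lost where both lay below and the difference was at most -1. By this rule 384 genes (1.92%) were gained and 264 (1.32%) were lost. Without L2 replicate 2 the counts were 980 gained and 537 lost, without L2 replicate 1 they were 376 and 707, without L4 replicate 1 they were 462 and 467, and without L4 replicate 2 they were 727 and 511. With a replicate left out, separation was asked of 1 value against 2, which is easier to meet than 2 against 2. Counts without a replicate, here and below, can therefore rise through the rule alone. With L4 replicates and controls paired by number, which includes the profile left out, 76 genes were gained, and many furrow and body-shape collagens had differences below 0. Separation alone was common, with both L4 values above both L2 values in 11.1% of genes and below them in 24.1%, and the median difference over all genes was -0.06.

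Gained genes had a median occupancy of 1.67 at L4, against 0.19 at L2, and 132 of the 384 had an L2 mean below 0. Lost genes had a median of -0.67 at L4, against 0.61 at L2. The difference reached 2 in 52 gained and in 26 lost genes. Of the gained genes, 31 shared a GATC fragment with another gained gene, and of the lost genes 18 with another lost gene, so their values are not separate measurements. Every nuclear chromosome held both kinds, with gained genes making up between 1.42% of the genes of chromosome V and 2.38% of those of chromosomes II and X. In hypodermis, 88 genes (0.44%) were gained and 269 (1.35%) lost by the same rule. Of the genes gained in seam cells, 45 were also gained in hypodermis, which is 11.7% of the seam cell genes and 51.1% of the hypodermal ones. Of the lost genes 24 were shared, which is 9.09% of the seam cell list and 8.92% of the hypodermal one. The difference between the stage differences of the 2 cell types had an unadjusted p under 0.05 by limma in 1177 genes (5.89%) and passed the adjusted threshold in none, with a smallest adjusted p of 0.589.

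**Figure D1:**
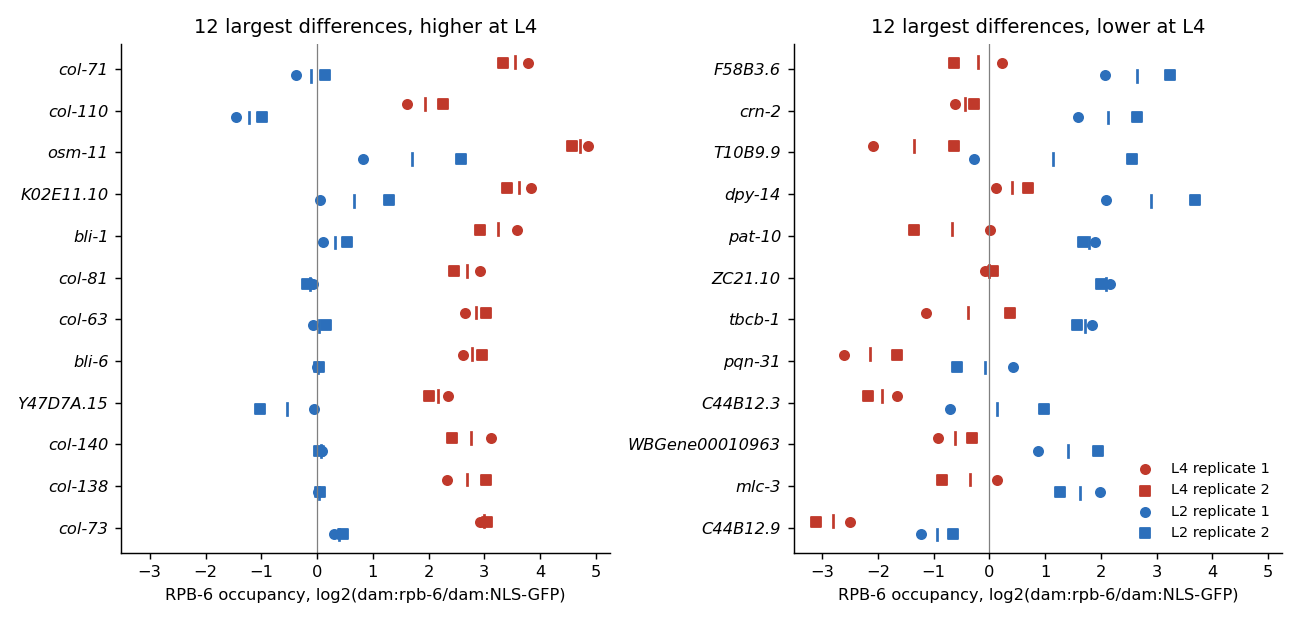
RPB-6 occupancy in the 4 seam cell profiles, as mean log2(*dam:rpb-6/dam:NLS-GFP*) of a gene's GATC fragments, for the 12 genes with the largest positive (left) and negative (right) L4 minus L2 difference among genes with at least 5 fragments and separated replicates. Circles and squares are replicates 1 and 2, short bars their means, red for L4 and blue for L2. Of the 12 on the left, 9 encode collagens, and all 12 lie above 1.5 in both L4 profiles.

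Of the 12 genes with the largest positive difference, 9 were cuticle collagens. The largest was *col-71* (chromosome II, 3500077 to 3502570, 8 fragments), which had 3.78 and 3.33 at L4, against -0.37 and 0.15 at L2, a difference of 3.67 ± 0.75 (limma SE, n = 2 each). In hypodermis its difference was 4.07. *col-110* had 1.62 and 2.25 at L4, against -1.45 and -0.99 at L2, a difference of 3.15 ± 0.33, while its difference in hypodermis was 0.33. *bli-1*, a collagen of the struts of the adult cuticle (chromosome II, 10708960 to 10712156, 15 fragments), had 3.58 and 2.92 at L4, against 0.11 and 0.53 at L2, a difference of 2.93 ± 0.34. *col-71* and *col-110* lay near or below 0 in both L2 profiles and *bli-1* slightly above it, whereas all 3 were above 1 in both L4 profiles. *col-81*, *col-63*, *bli-6*, *col-140*, *col-138* and *col-73* followed with differences between 2.60 and 2.81, and their highest L2 value was the 0.46 of *col-73*. *col-63* shared the smallest adjusted p of the limma fit with *Y43D4A.5* and *bus-2*, and had 2.66 and 3.04 at L4, against -0.08 and 0.16 at L2.

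The other 3 of the leading genes were *osm-11*, *K02E11.10* and *Y47D7A.15*. *osm-11* encodes a secreted co-ligand of Notch receptors and is best known for its role in the response to osmotic stress. It had 4.86 and 4.57 at L4, against 0.82 and 2.58 at L2, a difference of 3.01 ± 0.75. In hypodermis it was highly occupied at both stages, with 4.61 and 3.12 at L4, against 5.22 and 4.53 at L2. *K02E11.10* differed by 2.96 and *Y47D7A.15* by 2.72, and in hypodermis by 2.67 and 2.46.

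Collagen genes were counted in 4 lists, the *col* family, the furrow collagens, other collagens with a body-shape phenotype and adult-stage collagens. Of the 176 genes in them, 55 were gained (31.25%, beside 1.92% of all genes) and 2 lost, beside 1.32% of all genes. The 55 make up 14.3% of all gained genes. Among 156 *col* genes 38 were gained (24.4%) and 1 lost (0.64%), and the median difference was 0.43. The largest values after *col-71* belonged to *col-175* at 3.61 (3 fragments) and *col-133* at 3.41 (4 fragments). *col-83* was the lost one, with -1.01 and -1.68 at L4, against -0.14 and -0.13 at L2, and *col-118* had a difference of -0.95. Without any 1 of the 4 replicates, which makes separation easier to meet, the number of gained *col* genes lay between 39 and 55. That of lost ones was 4 without L4 replicate 1 and 3 without L2 replicate 1. Of the 55 gained collagens, 30 were also gained in hypodermis, where their median difference was 1.45, against 1.86 in seam cells.

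**Figure D2:**
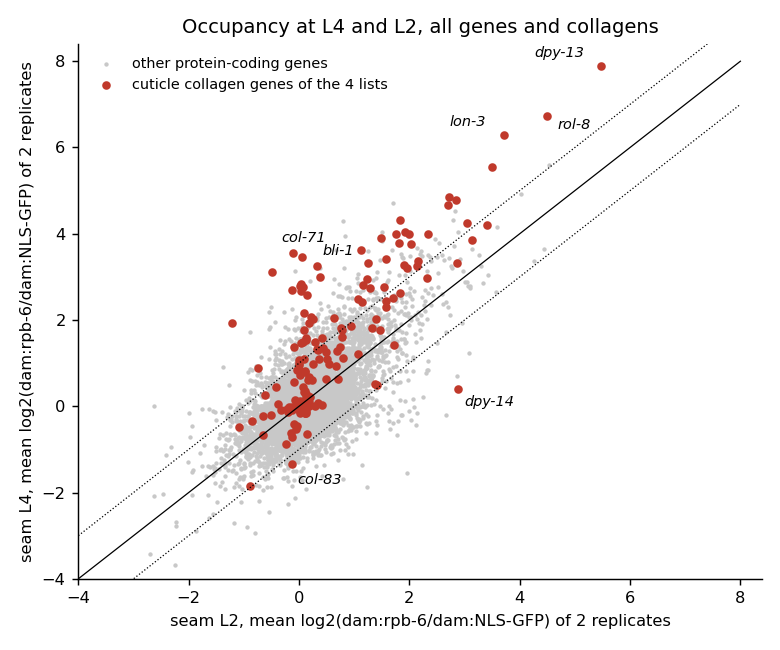
Mean RPB-6 occupancy at L4 (vertical axis) against L2 (horizontal axis) in seam cells, on the log2 scale, for 19983 protein-coding genes in grey and the 176 collagen genes of the 4 lists in red. The solid line marks equal occupancy and the dotted lines a difference of 1 in each direction. The 55 gained collagens lie above the upper dotted line, from genes near 0 at L2 such as *col-71* to genes that were already high at L2 such as *dpy-13*, and *dpy-14* lies far below the lower one.

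All 6 furrow collagens, which form the annular furrows of the cuticle and are read by osmotic and detoxification pathways as a sign of cuticle damage, were gained. *dpy-8* had 4.15 and 4.50 at L4, against 0.22 and 3.44 at L2, a difference of 2.50 ± 1.06. The L2 replicates of this gene lay further apart than the higher of them lay from the L4 values. *dpy-3* had the smallest difference of the 6, 1.24 ± 0.33, with 3.29 and 3.11 at L4, against 1.87 and 2.04 at L2. *dpy-7* differed by 2.02, *dpy-2* by 1.73, *dpy-10* by 1.44 and *dpy-9* by 1.38. The group was occupied at both stages, unlike *col-71* or *bli-1*. Its median difference in hypodermis was 0.61, and none of the 6 was gained there.

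Of 11 other body-shape collagens, 8 were gained (72.7%, beside 1.92% of all genes) and 1 was lost (9.09%, beside 1.32%). The median difference was 2.06. *dpy-13* was the most occupied gene with at least 5 fragments at L4, with 7.97 and 7.83, against 4.72 and 6.20 at L2. *rol-8* had 6.97 and 6.48 at L4, against 3.64 and 5.33 at L2, and *lon-3*, a collagen that shortens the body, had 6.79 and 5.80 at L4, against 3.42 and 4.03 at L2. *sqt-1* differed by 2.24, *dpy-4* by 2.12, *sqt-3* by 2.06, *rol-6* by 1.83 and *dpy-5* by 1.47. The exception was *dpy-14* (chromosome I, 6843589 to 6845142, 10 fragments), with 0.12 and 0.68 at L4, against 2.10 and 3.68 at L2, a difference of -2.49 ± 0.67. The same gene had 1.29 and 2.62 at L4, against 4.50 and 4.39 at L2, in hypodermis, and the interaction between stage and cell type was 0.00 ± 0.94.

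Among 5 collagens of the adult stage 4 were gained (80%, beside 1.92% of all genes). *bli-6* had 2.61 and 2.95 at L4, against -0.00 and 0.04 at L2. *bli-2*, the partner of BLI-1 in the struts, differed by 1.20 over only 2 fragments, and *col-19*, whose reporter is a usual mark of adult seam cell fate, had 1.62 and 0.56 at L4, against 0.22 and -0.04 at L2. All 4 were also gained in hypodermis, where the median of the list was 2.32, against 1.20 in seam cells. Of 12 genes that process and crosslink collagens 2 were gained (16.7%, beside 1.92% of all genes). These were *dpy-11* (1.53), a thioredoxin-like protein, and *pdi-2*, a protein disulphide isomerase that is also a subunit of prolyl 4-hydroxylase. *pdi-2* had 3.86 and 3.89 at L4, against 1.30 and 3.64 at L2. *doxa-1*, a maturation factor of the dual oxidase that crosslinks cuticle, had 1.72 and 1.28 at L4, against 0.51 and 0.68 at L2. *phy-3*, a prolyl 4-hydroxylase, had -0.93 and -1.07 at L4, against -0.06 and -0.22 at L2. Without L2 replicate 1 none of the processing genes was gained, without L4 replicate 2 or L2 replicate 2 the number was 3, and with quantile normalisation it was 1.

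**Figure D3:**
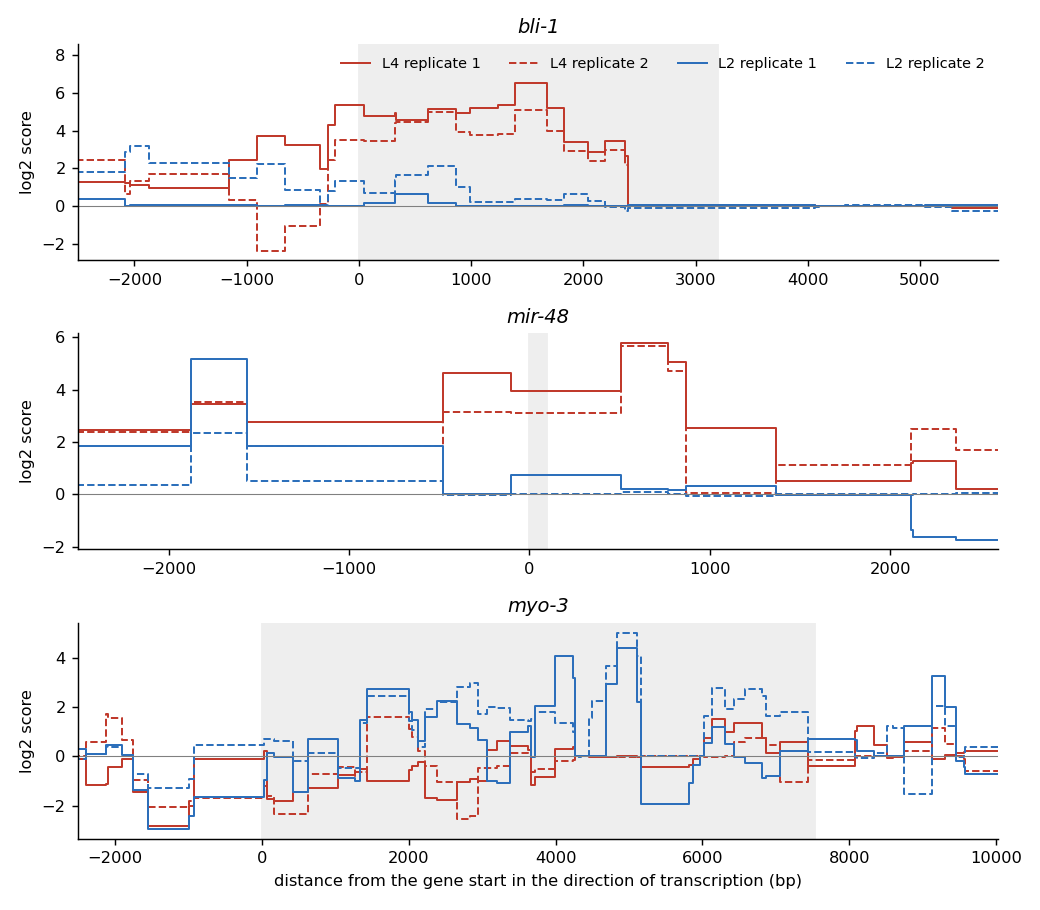
Log2 score of each GATC fragment (vertical axis) by distance from the gene start, in the direction of transcription, over *bli-1*, *mir-48* and *myo-3* and their flanks. Red lines are L4 and blue lines L2, solid for replicate 1 and dashed for replicate 2, and grey shading marks the gene. In *bli-1* 14 of 15 fragments scored above 1 in both L4 profiles, and in *myo-3* more fragments did so in the L2 profiles than in the L4 profiles.

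Over *bli-1*, 14 of 15 fragments scored above 1 in each L4 profile, against 0 and 5 in the L2 profiles. The highest fragment reached 6.52 and 5.10 at L4, against 0.64 and 2.11 at L2. The L2 replicates thus differed from each other, and neither reached the L4 pattern.

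Genes of the precuticle, the matrix that coats the epidermis before each new cuticle, also had more polymerase at L4. Of 11 such genes 8 were gained (72.7%, beside 1.92% of all genes) and none lost. The median difference was 1.36, against 0.18 in hypodermis. The lipocalin gene *lpr-3* had 4.13 and 3.94 at L4, against 1.77 and 1.22 at L2, a difference of 2.54 ± 0.60. *noah-1*, a zona pellucida domain protein, had 4.01 and 3.18 at L4, against 0.91 and 1.60 at L2. *fbn-1*, a fibrillin-like protein, had 3.17 and 2.71 at L4, against 0.14 and 1.14 at L2. *egg-6*, *let-653*, *noah-2*, *let-4* and *sym-1* differed by between 1.12 and 1.58. Without L2 replicate 1 the number of gained precuticle genes was 3, and without any 1 of the other replicates it was 7 or 8.

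Of 22 moulting genes 8 were gained (36.4%, beside 1.92% of all genes) and none lost. *mlt-11*, which encodes a large protease inhibitor, had 4.20 and 3.71 at L4, against 1.36 and 2.59 at L2, a difference of 1.98 ± 0.47. The patched-related gene *ptr-4* had 2.97 and 2.57 at L4, against 0.22 and 1.50 at L2. *acn-1* (an angiotensin-converting enzyme-like protein), *qua-1* (a hedgehog-related protein), *nas-37* (the astacin protease needed to shed the old cuticle), *mlt-10* and *myrf-1* (a membrane-bound transcription factor) differed by between 1.12 and 1.75. The nuclear receptor gene *nhr-23*, a driver of the moulting cycle, had 3.19 and 2.56 at L4, against 1.15 and 2.03 at L2. Without L2 replicate 1 the number gained was 6, without L4 replicate 1 it was 5, and without the other replicates it was 10 or 11. The median difference of the moulting genes was 0.55, against 0.13 in hypodermis.

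Hedgehog-related families are large in *C. elegans* and mostly epidermal. The gained share was 10% of warthog, 6.25% of groundhog, 9.68% of ground-like and 3.85% of patched-related genes, beside 1.92% of all genes. *wrt-10* was the only gained gene of 10 warthog genes, with 3.33 and 2.90 at L4, against 1.28 and 1.97 at L2. *grd-14* was the only one of 16 groundhog genes (1.79), and of 31 ground-like genes 3 were gained, among them *grl-2* (1.39) and *grl-5* (1.02). Of 26 patched-related genes *ptr-4* alone was gained. No hedgehog-related or patched-related gene was lost, beside 1.32% of all genes. These counts moved when a replicate was left out, where the separation rule is easier to meet. Without L4 replicate 2, 4 groundhog and 4 patched-related genes were gained, and without L2 replicate 2, 3 groundhog, 5 patched-related and 2 warthog genes. Without L2 replicate 1, 2 groundhog genes were gained and 1 ground-like and 1 patched-related gene were lost, and without L4 replicate 1, 2 ground-like genes were gained. With crossed controls at L2, 4 groundhog and 4 patched-related genes were gained. Families with a median near that of all genes were the 36 astacin proteases (1 gained, median -0.10) and the 35 cuticlins (none gained, median -0.12, with 2 lost without L2 replicate 1).

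**Figure D4:**
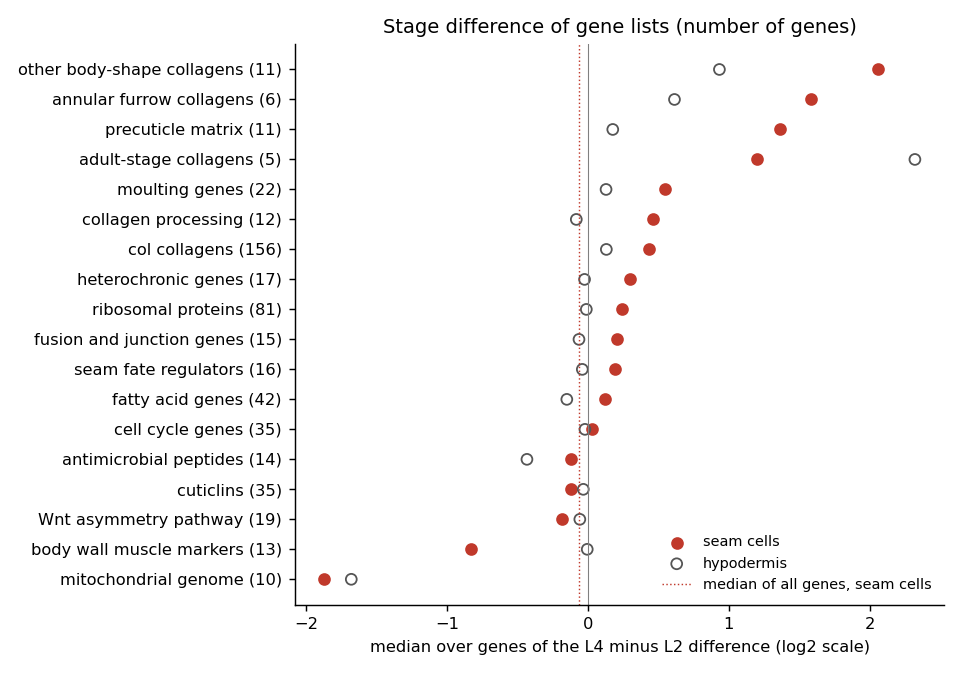
Median L4 minus L2 difference in RPB-6 occupancy, on the log2 scale, of 18 gene lists (number of genes in brackets) in seam cells (filled red) and hypodermis (open circles). The dotted line is the median of all genes in seam cells, -0.06. Collagen and precuticle lists lie at 1.20 and above in seam cells, except for the *col* family at 0.43 and collagen processing at 0.46. Body wall muscle markers lie at -0.83, against -0.00 in hypodermis, and the mitochondrial genome lies at -1.87, against -1.68.

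The promoters of gained genes were searched from 250 bases before to 50 bases after the annotated gene start, in the RefSeq WBcel235 assembly, on both strands for AGGTCA, the half-site bound by many nuclear receptors, and for AGATAA, which factors of the GATA family can bind. AGGTCA was found in 14.6% of the promoters of 384 gained genes, in 8.59% of those of 256 lost genes of the nuclear chromosomes and in 8.27% of all 19973. AGATAA was found in 24.5%, 21.5% and 21.2% of the same promoters in the same order. A match is a run of letters and not a shown binding site, and annotated starts of trans-spliced genes can lie downstream of the true start. The promoters of *mlt-11*, *lpr-3* and *col-81* are printed because these 3 gained genes, chosen after their values were seen, each hold 1 AGGTCA match, and *mlt-11* also holds 1 AGATAA match. Capitals mark the matches on either strand, and each run is written 5′ to 3′ in the direction of the gene.
*mlt-11*, chrV:20666955-20667254, plus strand: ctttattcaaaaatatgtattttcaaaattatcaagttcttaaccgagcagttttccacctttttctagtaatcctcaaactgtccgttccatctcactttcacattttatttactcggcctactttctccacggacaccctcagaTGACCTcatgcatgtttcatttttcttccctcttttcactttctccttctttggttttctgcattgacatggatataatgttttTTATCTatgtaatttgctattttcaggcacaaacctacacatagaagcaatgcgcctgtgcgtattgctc
*lpr-3*, chrX:11057151-11057450, plus strand: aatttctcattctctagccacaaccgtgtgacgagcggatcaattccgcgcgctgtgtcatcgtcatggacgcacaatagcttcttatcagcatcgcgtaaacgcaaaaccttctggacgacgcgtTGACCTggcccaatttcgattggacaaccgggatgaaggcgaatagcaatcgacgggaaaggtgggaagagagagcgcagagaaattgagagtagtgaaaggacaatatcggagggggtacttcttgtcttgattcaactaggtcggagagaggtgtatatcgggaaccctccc
*col-81*, chrII:11013718-11014017, minus strand: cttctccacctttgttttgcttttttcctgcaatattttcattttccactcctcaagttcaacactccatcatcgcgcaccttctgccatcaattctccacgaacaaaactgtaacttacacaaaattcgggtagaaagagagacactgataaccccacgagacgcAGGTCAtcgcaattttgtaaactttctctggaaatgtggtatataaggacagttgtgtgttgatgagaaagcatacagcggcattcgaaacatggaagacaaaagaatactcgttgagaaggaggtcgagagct

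Among 17 heterochronic genes, 2 were gained (11.8%, beside 1.92% of all genes) and none was lost. By limma 3 of them had an unadjusted p under 0.05, all higher at L4, beside 3.31% of all genes. *mab-10* (chromosome II, 10528084 to 10534380, 20 fragments), which encodes a cofactor of LIN-29, had 2.23 and 1.91 at L4, against 0.25 and 0.25 at L2, a difference of 1.82 ± 0.35. *lin-29* itself had 1.28 and 1.06 at L4, against 0.42 and 0.19 at L2, a difference of 0.86 ± 0.19. *dre-1*, an F-box gene, had 2.23 and 1.62 at L4, against 0.50 and 0.99 at L2. Both L4 values of these genes lay above both L2 values. *lin-42*, the worm homologue of period, differed by 0.48. The pathway genes *lin-14* (0.16), *lin-28* (-0.19), *lin-41* (0.13) and *daf-12* (0.03) had overlapping replicates. The sign of each of these differences changed when single replicates were left out. The number of gained heterochronic genes was 1 without L4 replicate 1 or L2 replicate 1 and 4 without L2 replicate 2. Their protein levels are known to be set largely after transcription, by the microRNAs described next.

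The microRNAs that time these stages fall into 2 seed families. Their mature sequences, read from RefSeq WBcel235 5′ to 3′, are shown because the family is defined by the seed, bases 2 to 8, which is in capitals. The first 4 share one seed and the last 2 another.
*let-7*: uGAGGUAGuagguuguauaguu
*mir-48*: uGAGGUAGgcucaguagaugcga
*mir-84*: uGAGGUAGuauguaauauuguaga
*mir-241*: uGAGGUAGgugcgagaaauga
*lin-4*: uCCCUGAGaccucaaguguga
*mir-237*: uCCCUGAGaauucucgaacagcu

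Occupancy of a miRNA was taken over its gene and 500 bp on each side, for 261 genes. No window passed an adjusted p of 0.05 by limma (0%), and the smallest adjusted p was 0.0639. At an unadjusted p under 0.05, 8 windows (3.07%) were higher and 14 (5.36%) lower, and by the rule used for genes 9 windows (3.45%) were gained and 11 (4.21%) lost. Both L4 values lay above both L2 values in 39 windows (14.9%) and below them in 61 (23.4%). The stage differences of the 2 cell types differed at an unadjusted p under 0.05 in 13 windows (4.98%). *mir-48* (chromosome V, 14364412 to 14364509) had the largest difference of all, 3.58 ± 0.50, with 4.32 and 3.31 at L4, against 0.47 and 0.01 at L2. Its adjusted p by limma was 0.106 and lay between 0.0208 and 0.998 over the alternatives tried. The fragment that holds the hairpin scored 3.96 and 3.12 at L4, against 0.76 and 0.00 at L2. *let-7* (chromosome X, 14743590 to 14745321) had 1.47 and 1.68 at L4, against -1.05 and 0.64 at L2, a difference of 1.78 ± 0.69. The coding gene *C05G5.7* lies within the annotated *let-7* gene on the same strand and differed by 2.41, so the 2 values share fragments.

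The other members of both families moved less. *mir-241*, which lies close to *mir-48* on chromosome V, had 2.86 and 2.52 at L4, against 2.78 and 0.98 at L2, so that its replicates overlapped. *mir-84* had 0.22 and 0.46 at L4, against 0.21 and -0.02 at L2. *mir-237* had 1.16 and 0.68 at L4, against 0.46 and -0.14 at L2, a difference of 0.76 ± 0.25. *lin-4* had 1.96 and -1.05 at L4, against 0.28 and -0.23 at L2, and its L4 replicates lay on either side of both L2 values. In hypodermis *mir-48* differed by 1.57, *let-7* by 1.29 and *mir-241* by 2.17.

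**Figure D5:**
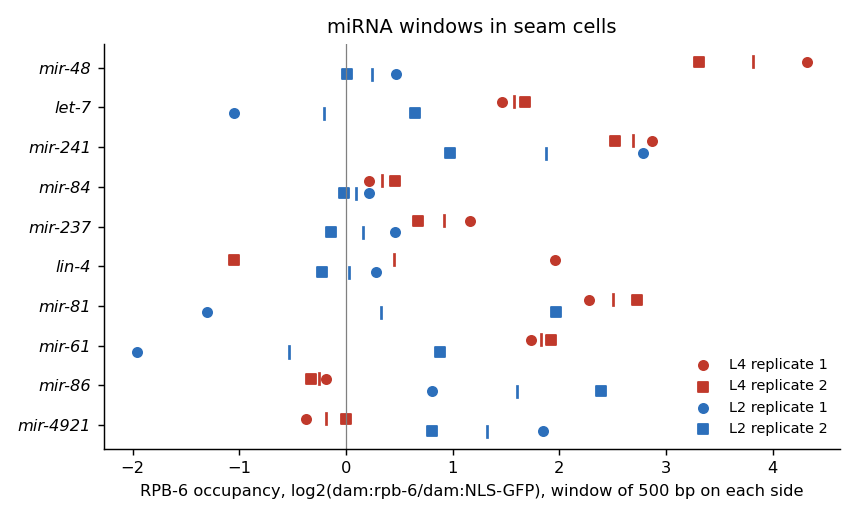
RPB-6 occupancy of miRNA genes with 500 bp on each side in the 4 seam cell profiles, on the log2 scale. Circles and squares are replicates 1 and 2, short bars their means, red for L4 and blue for L2. The 2 groups of points are furthest apart for *mir-48*, and for *lin-4* the L4 points lie on both sides of the L2 points.

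Outside these families, the next largest differences among miRNA windows were those of *mir-61* (2.37) and *mir-81* (2.17). Both had L2 replicates that lay far apart. *mir-61* had 1.74 and 1.92 at L4, against -1.96 and 0.88 at L2, and *mir-81*, of the family related to bantam of flies, had 2.28 and 2.73 at L4, against -1.31 and 1.97 at L2. The lowest differences were those of *mir-8211* (-1.91) and *mir-86* (-1.85), whose windows overlap within the gene *Y56A3A.7*, and of *mir-4921* (-1.51). *mir-86* had -0.18 and -0.33 at L4, against 0.81 and 2.39 at L2. The window with the smallest adjusted p was that of *mir-5548* (chromosome II, 2284810 to 2284919, 8 fragments), which was lost. It had -0.49 and -0.40 at L4, against 0.88 and 1.17 at L2, a difference of -1.47 ± 0.16 (limma adjusted p = 0.0639), while its difference in hypodermis was 0.33. Over the alternatives tried its limma adjusted p lay between 0.0134 and 0.729. The 10 genes *mir-35* to *mir-44* lie in separate clusters, and none was gained or lost. *mir-42*, *mir-43* and *mir-44*, whose windows overlap (chromosome II, 11889811 to 11890118), differed by 0.80, 0.77 and 0.70, with both L4 values above both L2 values. *mir-42* had 2.51 and 2.28 at L4, against 1.25 and 1.93 at L2. The differences of *mir-35* to *mir-41* lay between -0.37 and 0.02, and their replicates overlapped.

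Regulators of seam cell identity had small differences in both directions. Of 16 such genes none was gained or lost, with 4 separated upwards and 4 downwards, beside 11.1% and 24.1% of all genes, and the median was 0.19. Without L4 replicate 2 or L2 replicate 2, 3 were gained, and with crossed controls at L2, 2. The GATA factor genes *egl-18* and *elt-6*, which maintain seam fate, had 1.11 and 0.82 and 1.93 and 1.09 at L4, against 0.25 and 0.60 and 0.56 and 0.90 at L2. *pal-1*, the caudal homologue, had -0.43 and -0.37 at L4, against 0.08 and -0.00 at L2. Of 19 genes of the Wnt asymmetry pathway, which makes the daughters of a seam division differ, 1 was gained (5.26%, beside 1.92% of all genes). This was *apr-1*, the APC homologue, with 1.38 and 1.65 at L4, against -0.19 and 0.91 at L2. None of the Wnt genes was gained without L2 replicate 1, and without L4 replicate 1 there was 1 lost. *pop-1*, the TCF factor, differed by 0.65. *cam-1*, a Ror receptor tyrosine kinase that binds Wnt, had -0.42 and -0.71 at L4, against 0.36 and 0.38 at L2, a difference of -0.93 ± 0.16.

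Among 35 cell cycle genes the largest difference belonged to *cki-1*, the inhibitor of cyclin-dependent kinases that holds seam cells out of the cycle. It had 3.24 and 1.77 at L4, against 0.79 and 1.36 at L2, a difference of 1.43 ± 0.55. *cki-1* was the only gained gene of the list (2.86%, beside 1.92% of all genes), whereas 2 were gained without either L4 replicate in turn. In hypodermis the same gene had 0.56 and -0.15 at L4, against 1.74 and 2.13 at L2. *cdk-4*, the kinase that promotes entry into the cycle, had 0.33 and 0.26 at L4, against 0.84 and 0.91 at L2, and *fzr-1*, an activator of the anaphase-promoting complex that opposes it, had 1.17 and 0.69 at L4, against 0.18 and 0.37 at L2. Outside this list, *tyms-1*, thymidylate synthase, which makes a precursor of DNA, was among the 5 smallest p-values of the negative direction and had -0.64 and -0.55 at L4, against 1.06 and 0.63 at L2, a difference of -1.44 ± 0.18. The median of the cell cycle list was 0.03, and of 72 histone genes none was gained or lost, although 4 were gained without L4 replicate 2, 8 were gained without L2 replicate 2, 5 were gained with crossed controls at L2, and 3 were lost without L2 replicate 1. Histone genes are near-identical copies whose reads may be split or dropped in mapping, so their values are uncertain.

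Of 15 genes for cell fusion and junctions none was gained or lost. Of the 15, 8 were separated upwards (53.3%, beside 11.1% of all genes) and 1 downwards (6.67%, beside 24.1%). *aff-1*, the fusogen that joins seam cells to one another at the end of L4, had 0.91 and 0.94 at L4, against 0.49 and -0.07 at L2, a difference of 0.72 ± 0.20. Surface glycosylation genes shape the sugar coat that bacteria bind. By limma 4 of 10 had an unadjusted p under 0.05, all higher at L4, beside 3.31% of all genes. *bus-2* had 1.13 and 0.99 at L4, against -0.00 and -0.06 at L2, a difference of 1.09 ± 0.08 that was among the 5 smallest p-values of the positive direction. *bah-1* differed by 0.68, *bus-4* by 0.67 and *sqv-7* by 0.52, while *srf-3* did not separate. The genes *Y43D4A.5* and *F56D3.1*, also among these 5, differed by 1.41 and 1.55.

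Of 14 antimicrobial peptide genes of the epidermis 2 were lost (14.3%, beside 1.32% of all genes) and none gained. *nlp-29*, which is induced by wounding and fungal infection, had 0.01 and 0.00 at L4, against 1.19 and 2.09 at L2, and *nlp-34* had 1.59 and 0.87 at L4, against 3.23 and 2.93 at L2. These genes overlap only 2 fragments each. In hypodermis their differences were -2.14 and -1.22. Without either L2 replicate in turn 3 of the peptide genes were lost, and without L2 replicate 2, 1 was gained. Of 42 fatty acid genes none was gained or lost. Of the 42, 15 were separated upwards (35.7%, beside 11.1% of all genes) and 6 downwards (14.3%, beside 24.1%). *fat-6*, a stearoyl-CoA desaturase, had 1.26 and 1.95 at L4, against 0.74 and 0.79 at L2, and *acs-3*, an acyl-CoA synthetase, had 1.29 and 0.46 at L4, against 0.00 and 0.07 at L2. Without L2 replicate 2, 5 fatty acid genes were gained, without L4 replicate 2, 3, and without L4 replicate 1, 2 were gained and 2 lost. Leaving out L2 replicate 1 gave 1 gained and 2 lost. In hypodermis 19 of the 42 were separated downwards, beside 18.5% of all genes there, and none upwards, beside 9.91%.

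Of 269 nuclear hormone receptor genes 5 were gained and 3 lost, led by *nhr-116* with 1.93 and 1.56 at L4, against -0.40 and 0.47 at L2, and by *nhr-103* with -1.30 and -1.03 at L4, against -0.21 and 0.02 at L2. These shares, 1.86% and 1.12%, lie near the 1.92% and 1.32% of all genes. The gained receptors numbered between 3 (without L2 replicate 1) and 13 (without L2 replicate 2), and 5 were lost without either L2 replicate in turn. Of 63 homeobox genes none was gained and 1 lost (1.59%, beside 1.32% of all genes). However, 2 were gained without L4 replicate 2 or L2 replicate 2, and 2 were lost without L2 replicate 1. Of 81 ribosomal protein genes, which are used in all cells, 14 were gained (17.3%, beside 1.92% of all genes) and none lost. *rps-11* had 3.43 and 2.53 at L4, against 0.89 and 1.22 at L2, and *rps-15* had 0.83 and 2.73 at L4, against -0.56 and 0.16 at L2. This count moved when a replicate was left out, where the separation rule is easier to meet. Without L2 replicate 1 it was 7 gained with 14 lost, without L2 replicate 2 it was 36 gained, and without L4 replicate 1, 5 were lost.

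Body wall muscle markers had less polymerase at L4. Of 13 genes of the contractile apparatus and its regulators, 6 were lost (46.2%, beside 1.32% of all genes) and none was gained. Of the 13, 10 were separated downwards (76.9%, beside 24.1% of all genes). The median difference was -0.83, against -0.00 in hypodermis. *myo-3*, a myosin heavy chain (chromosome V, 12226817 to 12234343, 49 fragments), had -0.34 and -0.30 at L4, against 0.68 and 1.52 at L2, a difference of -1.43 ± 0.28. Along *myo-3*, 4 and 2 fragments scored above 1 at L4, against 16 and 31 at L2. *pat-10*, troponin C, had 0.01 and -1.34 at L4, against 1.89 and 1.67 at L2. *unc-54*, the major myosin heavy chain, had 0.37 and -0.10 at L4, against 0.84 and 2.84 at L2.

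The differences of *lev-11* (tropomyosin), *unc-15* (paramyosin), *mup-2* (troponin T), *unc-87*, *unc-22* (twitchin) and *unc-89* (obscurin) lay between -1.42 and -0.78. Without L2 replicate 1 the number of lost muscle markers was 10, without L2 replicate 2 it was 3, and without L4 replicates 1 and 2 in turn it was 7 and 4. With crossed controls at L2 it was 3. Markers of other cells differed less, with medians of -0.10 for neurons, -0.05 for intestine, -0.23 for germline and -0.21 for pharynx, and none of those markers was gained or lost. Without L4 replicate 1, however, 1 neuron marker was gained and 1 neuron and 1 germline marker were lost, and without L2 replicate 1, 1 neuron and 1 pharynx marker were lost. Of 31 sperm protein genes 2 were lost (6.45%, beside 1.32% of all genes) and none was gained. Of the 31, 9 were separated downwards, a share near the 24.1% of all genes. Their median difference was -0.05, beside -0.06 for all genes. *msp-64*, a major sperm protein gene, had -1.76 and -1.22 at L4, against 0.07 and -0.00 at L2, a difference of -1.52, and *msp-65* had -0.02 and -0.42 at L4, against 0.03 and 1.62 at L2, a difference of -1.04. These genes have 4 fragments each and near-identical copies elsewhere in the genome, so their values are uncertain. Without L4 replicate 1 or L2 replicate 1 the number of lost sperm genes was 3, and without L4 replicate 2 or L2 replicate 2 it was 1. The part of muscle signal in other genes lower at L4 was not tested.

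The remaining leading genes of the negative direction came from many functions. *F58B3.6* (chromosome IV, 11636648 to 11638208, 7 fragments) had the largest difference, -2.86 ± 0.60, with 0.22 and -0.64 at L4, against 2.07 and 3.24 at L2. *crn-2*, a nuclease that acts in apoptotic DNA degradation, had -0.62 and -0.27 at L4, against 1.60 and 2.64 at L2. *tbcb-1*, tubulin folding cofactor B, had -1.14 and 0.36 at L4, against 1.84 and 1.57 at L2, and *mlc-3*, a myosin light chain of muscle, had 0.14 and -0.84 at L4, against 1.99 and 1.26 at L2. *T10B9.9*, *ZC21.10*, *pqn-31*, *C44B12.3* and *C44B12.9* differed by between -2.50 and -1.86. At *C44B12.9* occupancy was below 0 in all 4 profiles, with -2.50 and -3.11 at L4, against -1.23 and -0.65 at L2. The smallest p-values of the negative direction outside these groups were those of *C55B6.4* (-0.97), *scl-12* (-0.99), *sedl-1* (-1.65) and *F17H10.4* (-1.96), the first and the last 2 of which overlap fewer than 5 fragments.

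The 10 coding genes scored on the mitochondrial genome all had both L4 values below both L2 values, beside 24.1% of all genes. Of these 10, 8 were lost, beside 1.32% of all genes. The mean difference was -1.70 ± 0.50 (SD over the 10 genes), against -1.38 in hypodermis. The gene among them that the naming rule picked, WBGene00010963, for which the annotation used gave no symbol, had -0.92 and -0.31 at L4, against 0.86 and 1.94 at L2. These genes share 22 fragments of a genome that RNA polymerase II does not transcribe, and none had an unadjusted p under 0.05.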

How the data were processed

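GATC fragments of 16 DamID libraries were read as log2 ratios. Per the labels and methods, single-end reads were mapped by the authors with Bowtie2 2.3.4 and SAMtools 1.9 on the WBcel235 assembly, who deposited, for 1 *dam:rpb-6* sample against 1 *dam:NLS-GFP* sample, a normalised log2 score per GATC fragment made with damidseq_pipeline. Their averaged profiles and their lists of expressed genes (mean log2 score, fragments and false discovery rate) were not used. Fragment ends were checked against the GATC sites of the assembly.

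Gene occupancy was the mean log2 score of the overlapping fragments weighted by overlapped length, without a filter on low values. Protein-coding genes entered a fit of limma 3.58.1 (R 4.3.3) on 8 profiles with 4 group means, 2-sided, with Benjamini-Hochberg adjustment over all genes, and miRNA genes with 500 bp on each side in a separate fit. The difference is always L4 minus L2, and SE is that of limma. Samples of one number came from one population according to the growth protocol, and the fit with this pairing is an alternative. Deviations of same-numbered L4 and L2 profiles correlated across genes with r = -0.121 in seam cells and 0.232 in hypodermis. The fits were tested on simulated data. Read counts were not used here, so the depth and the counting error of a score are unknown.

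Among genes with at least 5 fragments and separated replicates, the 12 that differed most in either direction were named, as were the 5 with the smallest p in each direction, members of 34 gene lists, and the 3 miRNA windows with the largest difference in each direction. *C05G5.7*, *Y56A3A.7*, *mir-5548*, and *col-175* and *col-133* among genes with fewer than 5 fragments were named after their values were seen. The comparison, the gene lists and the tests were chosen with earlier results of these data known. Alternatives covered the controls, the pairing, scaling, the gene score, the minimum number of fragments, the variance prior, the miRNA window, the size of difference and each replicate. Their effect on the gene lists was added after seeing the data.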

Additional observations from a re-analysis of the deposited data

Results flagged for a closer look

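For 7 genes and 1 miRNA named in the report, both L4 values lay on one side of both L2 values in seam cells and on the other side in hypodermis. The test of the difference between the 2 stage differences passed 0.05 before adjustment in limma, and in none of them after Benjamini-Hochberg adjustment over all genes or all miRNA windows.

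*cki-1* had a stage difference of 1.43 in seam cells, against -1.73 in hypodermis, an interaction of 3.16 (limma adjusted p = 0.778). *rps-11* had 1.92 in seam cells, against -0.66 in hypodermis (limma adjusted p = 0.768). *egg-6* had 1.58 in seam cells, against -0.35 in hypodermis (limma adjusted p = 0.795).

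*Y43D4A.5* had 1.41 in seam cells, against -0.12 in hypodermis (limma adjusted p = 0.589). *fat-6* had 0.84 in seam cells, against -0.64 in hypodermis (limma adjusted p = 0.795). *sedl-1* had -1.65 in seam cells, against 0.50 in hypodermis (limma adjusted p = 0.589), and *unc-87* had -0.81 in seam cells, against 0.31 in hypodermis (limma adjusted p = 0.768). *mir-5548* had -1.47 in seam cells, against 0.33 in hypodermis, an interaction of -1.79 (limma adjusted p = 0.0935).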

How the results depend on the processing

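With the L4 profiles paired by number as deposited, which brings back the profile that resembles a ratio of controls, 76 genes were gained, and 46 of the 384 gained and 81 of the 264 lost genes kept their class. With crossed controls at L2, 622 genes were gained and 142 lost. With each replicate except L4 replicate 1 of seam cells averaged over both controls, 233 genes passed upwards and 447 downwards. In the same setting 17 miRNA windows passed, and the difference between cell types passed in 197 genes. With the median of fragments 1 gene passed upwards and 1 downwards. Without 1 replicate, 376 to 980 genes were gained and 467 to 707 lost, where separation is easier to meet because fewer values remain. With fragments wholly within the gene 414 genes were lost, and with at least 5 fragments 153. A minimum difference of 0.5 gave 1039 gained and 1270 lost genes, and one of 2 gave 52 and 26. Scaling to the same SD called 2 miRNA windows and quantile normalisation 1. The replicate block, which pairs the samples of one population, called 0 genes in either direction, with 722 higher and 971 lower at an unadjusted p under 0.05, and changed no other call.

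Of 2520 recomputed values of 132 named genes and miRNAs, 2469 kept their direction, 51 reversed and 33 passed the threshold. Paired as deposited, the difference was -0.051 for *dpy-7*, -0.24 for *dpy-2*, -0.16 for *dpy-10*, -0.23 for *dpy-9*, -0.43 for *dpy-3*, -0.85 for *lon-3*, -1.55 for *dpy-13*, -1.28 for *rol-8*, -0.57 for *sqt-3*, -0.35 for *dpy-4*, -0.46 for *pdi-2*, -0.24 for *noah-2*, -0.49 for *sym-1*, -0.14 for *mlt-11*, -0.32 for *nhr-23*, -0.18 for *wrt-10*, -0.036 for *lin-42*, -0.018 for *egl-18*, -0.21 for *elt-6*, -0.15 for *cki-1*, -0.22 for *bus-4*, -0.56 for *mir-241*, -0.53 for *lin-4*, -0.44 for *mir-42*, -0.40 for *mir-43*, -0.39 for *mir-44*, -0.23 for *lin-14*, -0.22 for *lin-41* and -0.12 for *daf-12*. With the median of fragments it was -0.0095 for *egl-18*, 0.21 for *lin-28*, -0.21 for *lin-41* and -0.13 for *daf-12*. With the unweighted mean it was -0.074 for *lin-41* and 0.61 for *srf-3*, with crossed controls 0.070 for *lin-28* and 0.18 for *srf-3*, with fragments wholly within the gene 0.17 for *srf-3*, with scaling to the same SD -0.0066 for *daf-12*, and with no added bases -0.26 for *mir-241*. Over the fits without 1 replicate it ranged between -0.086 and 1.71 for *mir-241* (lowest without L2 replicate 2), -1.08 and 1.93 for *lin-4* (lowest without L4 replicate 1), -0.12 and 0.44 for *lin-14*, -0.48 and 0.11 for *lin-28*, -0.13 and 0.39 for *lin-41*, -0.11 and 0.17 for *daf-12* and -0.48 and 0.35 for *srf-3*. Except for the leave-outs and the profile of controls, the cause was not tested. With 2 replicates a stage and unknown depth, single-gene differences rest on size and separation alone.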
